A study of Mus musculus with 40 samples.

Results

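The neuropeptide genes that cortical interneurons are known for were followed through translating and synaptic RNA of 2 mouse lines. They number 10: Sst, Cort, Npy, Vip, Cck, Crh, Crhbp, Tac2, Pnoc and Pthlh. All but 1 encode secreted peptides, and Crhbp encodes a secreted protein that binds corticotropin-releasing hormone. They were taken by symbol, as 10 of the 41388 genes in the deposited counts, and all 10 were found. Earlier results of these same libraries, which included the levels of such genes in the ribosome-captured fractions, were known when the list was drawn up. Values of the captured fractions are therefore given as a description, with no test on the 10 genes. Tests on them are kept to the fractions made without capture, which the earlier results also covered.

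The mice carried a reporter that expresses EGFP fused to the ribosomal protein Rpl10a once Cre has acted. In the RBP4 line Cre came from Tg(RBP4-cre)KL100Gsat/Mmcd, a transgene used to reach pyramidal neurons of cortical layer 5, and in the VGAT line from the vesicular GABA transporter locus, Slc32a1, which is active in GABAergic neurons of any kind and any region. Each of the 5 replicates of a line was a pool of forebrains of both sexes taken at 21 days of age, labelled as cortex. From striatal markers in its VGAT capture, the paper proposes that the dissection likely took in part of the dorsal striatum. Every pool gave 4 libraries, which makes 8 groups of 5. WCH is RNA of the whole homogenate. TRAP is RNA that came down with EGFP-tagged ribosomes captured from that homogenate. SNF is RNA of the synaptoneurosome fraction, a preparation of pinched-off synapses and whatever sediments with them, and ST (SynapTRAP) is RNA captured on tagged ribosomes from SNF.

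Neuropeptides are made as long precursors, packed into dense-core vesicles, cut by proprotein convertases, and released mostly onto G protein-coupled receptors. Cortical GABAergic neurons are commonly divided by the peptides they make. Sst marks cells that mainly contact dendrites, and Cort (cortistatin) is expressed by a subset of interneurons that overlaps with them. Npy is made by neurogliaform cells and by many Sst cells, and Vip marks cells that mainly inhibit other interneurons. Crh and Tac2 (the neurokinin B precursor) occur in subsets of Vip and other interneurons, Pnoc encodes the nociceptin precursor, and Pthlh encodes parathyroid hormone-like hormone. Cck stands apart in that cortical pyramidal neurons transcribe it as well as a class of basket cells.

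In the coordinates of the files, which match the mouse GRCm38 assembly, the genes lie on 8 chromosomes. The files place Sst at chr16:23889581-23890844 on the minus strand with 2 exon blocks, Cort at chr4:149125034-149126763 on the minus strand with 2, and Npy at chr6:49822710-49829507 on the plus strand with 4. Vip lies at chr10:5639218-5647614 on the plus strand with 7 blocks and Tac2 on the same chromosome and strand at chr10:127724478-127731767 with 8. Cck is at chr9:121489825-121495689, Crh at chr3:19693401-19695396, Crhbp at chr13:95431371-95444831, Pnoc at chr14:65400673-65425472 and Pthlh at chr6:147252101-147264167, all on the minus strand. Their counted exons sum to 566 nt (Npy) to 2157 nt (Pnoc), and no exon of the 10 overlapped an exon of another gene in the files.

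Sst and Cort are the closest relatives on the list, since both precursors end in a cyclic peptide whose core binds somatostatin receptors. The stretch that encodes this core is shown from the GENCODE M21 transcripts, 5′ to 3′, with the codons of the receptor-binding core in capitals.
Sst: aagaacttcTTCTGGAAGACAttcaca
Cort: aagaacttcTTCTGGAAAACCttctcc
The 2 runs had 23 of 27 bases in common, and 10 of the 12 capital bases.

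The Sst promoter is the classical site of the cAMP response element, the palindrome TGACGTCA that binds CREB. It stood 48 to 41 bases upstream of the Sst start in the RefSeq promoter of GRCm38.p6. It is given in capitals within the 30 bases of chr16:23890874-23890903 on the minus strand.
Sst promoter: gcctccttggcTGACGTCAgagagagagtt
Both strands were searched from 250 bases before to 50 after the start. The palindrome was in 1 of the 8 members with a promoter entry, Sst. Over all genes it was in 549 of 27025 (2.03%), and over all promoters of that length in 588 of 32851 (1.79%). Crh and Pnoc had no entry.

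Library totals ran from 14259535 to 22037703 counts, and from 8950847 to 21976631 once mitochondrial, ribosomal and transfer RNA genes were left out. Levels are given as cpm, the count of a gene scaled to that reduced total, on which 1 count is worth 0.0455 to 0.112 cpm. Mitochondrial genes took 0.0584% to 41.9% of the counts and were above 40% in SNF replicate 3 of both lines. All 10 genes were above 0.5 cpm in every WCH and SNF library, so the filter on low values did not choose among them. The lowest value anywhere was 4 counts, for Pthlh in an RBP4 TRAP library.

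**Figure D1:**
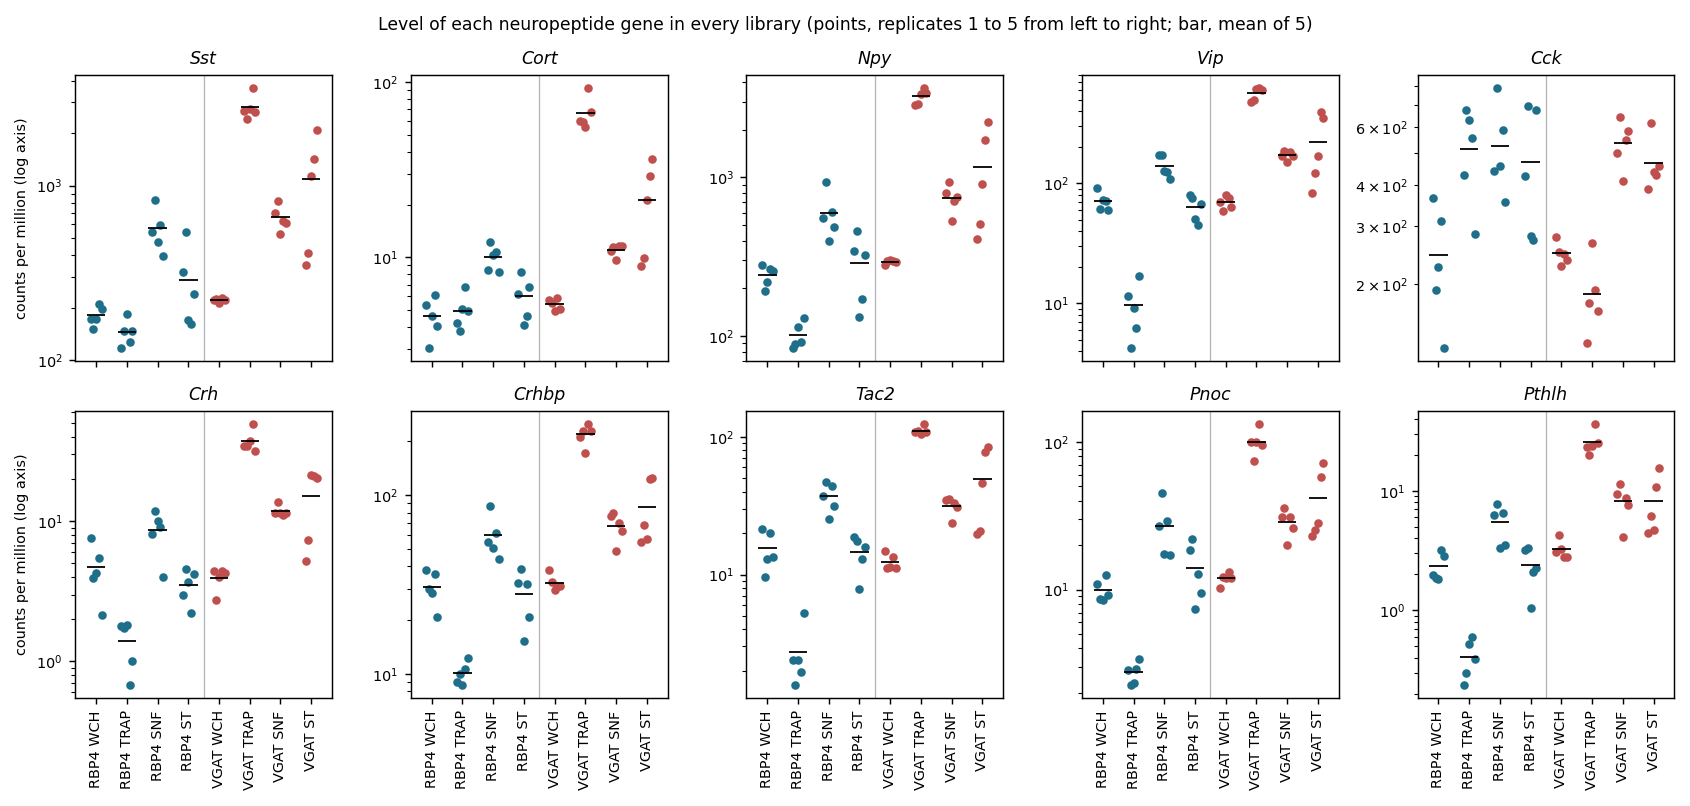
Level of the 10 genes in cpm (log axis) in the 4 fractions, 1 panel per gene, with RBP4 libraries in blue and VGAT libraries in red. Points are replicates 1 to 5 from left to right and bars are group means. VGAT TRAP holds the highest points of every gene but Cck, while WCH and SNF points of the lines lie close together, without overlap for Sst in WCH.

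In translating RNA of GABAergic neurons Npy and Sst were among the most abundant messages per kilobase of exon. The other members were spread over a wide range of levels. Summed over the 10 genes, the VGAT TRAP libraries held 6484 to 8831 cpm, which is 0.648% to 0.883% of their counts. The same sum was 883 to 927 cpm in VGAT WCH, 654 to 997 in RBP4 WCH and 606 to 959 in RBP4 TRAP. Ordered per kilobase of exon, Npy stood 3rd and Sst 6th among 40998 genes in VGAT TRAP. Vip followed at place 159, Cck at 224, Crhbp at 498, Tac2 at 514, Cort at 651, Pnoc at 1397, Crh at 2136 and Pthlh at 3386. In VGAT WCH, Npy was at place 51, Sst at 92 and Cck at 100. The paper describes its reads as strongly biased to 3′ ends, and with such reads an order per kilobase favours short genes. Npy (566 nt) and Sst (599 nt) were the shortest members, and no order without length is given.

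Npy, whose product is a long-acting inhibitory peptide, had 2854, 2885, 3347, 3678 and 3391 cpm in VGAT TRAP replicates 1 to 5 and 84.3, 89.0, 114, 91.7 and 131 cpm in RBP4 TRAP. Sst had 2685, 2401, 2739, 3648 and 2651 cpm in VGAT TRAP and 118, 148, 183, 128 and 147 cpm in RBP4 TRAP. For both genes the line groups lay more than a factor of 10 apart in every library, with 1 VGAT library, replicate 4, standing high for Sst. Vip had 474, 496, 613, 629 and 601 cpm in VGAT TRAP against 11.6, 4.26, 9.19, 6.28 and 16.9 cpm in RBP4 TRAP. The highest RBP4 value of Vip was in replicate 5.

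The less abundant members had the same order of lines. VGAT TRAP held 219 ± 29.0 cpm of Crhbp, 111 ± 7.44 of Tac2, 99.9 ± 20.7 of Pnoc, 66.8 ± 15.2 of Cort, 37.6 ± 6.90 of Crh and 25.6 ± 6.12 of Pthlh (mean ± SD, n = 5). RBP4 TRAP held 10.1 ± 1.41, 2.72 ± 1.47, 2.76 ± 0.469, 4.98 ± 1.16, 1.41 ± 0.525 and 0.408 ± 0.148 cpm of these genes in the same sequence. Cck was the exception. Its RBP4 TRAP libraries held 431, 678, 632, 555 and 284 cpm and its VGAT TRAP libraries 132, 175, 267, 191 and 165 cpm, so that every RBP4 library was above every VGAT library.

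As fitted ratios in TRAP, Pthlh was 61.1-fold, Vip 58.4-fold, Tac2 40.9-fold, Pnoc 36.1-fold, Npy 31.7-fold, Crh 26.7-fold, Crhbp 21.6-fold, Sst 19.5-fold and Cort 13.4-fold higher in VGAT, and Cck was 2.77-fold lower. These are values of the kind the genes were selected on. The VGAT libraries lay wholly above the RBP4 libraries for 9 of the 10 genes, and for 13.2% of the 16898 genes compared. In TRAP the GABAergic and glutamatergic markers of the targeted populations behaved as labelled by edgeR's quasi-likelihood test. Gad1, Gad2 and Slc32a1 were called higher in VGAT TRAP (3 of 3 GABAergic markers) and all 4 glutamatergic markers higher in RBP4 TRAP. All 6 markers of striatal projection neurons were also called higher in VGAT TRAP, with summed levels of 1344 to 2239 cpm against 80.9 to 171 cpm in RBP4 TRAP. Of 6 microglial markers, 5 were called higher in VGAT TRAP too, at summed levels of 19.3 to 82.3 cpm against 9.80 to 34.7 cpm. How much of each peptide message came from striatal rather than cortical GABAergic neurons was not tested. In pooled tissue of this kind, fewer cells of a type and less RNA per cell cannot be told apart.

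RBP4 TRAP replicate 5 stood apart from the other 4 RBP4 TRAP libraries. It had 332 cpm of Gad1, against 58 to 95 cpm in the others, and a summed oligodendrocyte marker level of 5508 cpm, against 388 to 929 cpm. Its Npy (131 cpm), Vip (16.9), Crhbp (12.3), Tac2 (5.27) and Pnoc (3.42) were the highest of the group and its Cck (284 cpm) the lowest. The part of this library in the RBP4 means is not given separately. VGAT TRAP replicate 3 stood apart in the other line. It had 155 cpm of the glutamatergic marker Slc17a7, against 24.6 to 48.8 cpm in the other VGAT TRAP libraries. Its summed glutamatergic level was 242 cpm, against 40.5 to 81.5 cpm. Its GABAergic sum, 2934 cpm, was the lowest of the group and its Cck, 267 cpm, the highest. The part of replicate 3 in the VGAT means is not given separately either. Other settings were tried, which included leaving out single replicates. Under these, no line difference in TRAP and no RBP4 TRAP minus WCH value of a member changed sign.

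Against the homogenate each capture came from, the same division appeared. By fitted ratios, VGAT TRAP was above VGAT WCH 12.8-fold for Sst, 12.3-fold for Cort, 11.0-fold for Npy, 9.47-fold for Crh, 8.93-fold for Tac2, 8.36-fold for Pnoc, 8.05-fold for Vip, 7.91-fold for Pthlh and 6.73-fold for Crhbp. All VGAT TRAP libraries were above all VGAT WCH libraries for these 9 genes, and for 16.9% of the 16990 genes compared. Cck was 1.33-fold lower in VGAT TRAP than in WCH, with overlapping values. In RBP4, Vip was 7.42-fold, Tac2 5.73-fold, Pthlh 5.60-fold, Pnoc 3.60-fold, Crh 3.33-fold, Crhbp 3.02-fold and Npy 2.39-fold lower in TRAP than in WCH, and Cck was 2.11-fold higher.

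Each of those 7 genes had all RBP4 TRAP libraries below all RBP4 WCH libraries, as did 23.8% of the 17043 genes compared. Sst and Cort were nearly level between the RBP4 fractions. Their TRAP minus WCH difference was -0.32 and 0.11 on the log2 scale, beside a median of -0.34 over all genes. With TMM factors, a scaling that centres the bulk of genes, it was -0.03 for Sst and 0.39 for Cort, beside a median of -0.05. Thus Sst messenger RNA in the RBP4 capture stood at about its homogenate level, 145 ± 25.2 cpm against 180 ± 22.6 cpm (SD, n = 5), while Vip in the same libraries stood at 9.65 ± 4.93 against 71.5 ± 12.8 cpm.

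**Figure D2:**
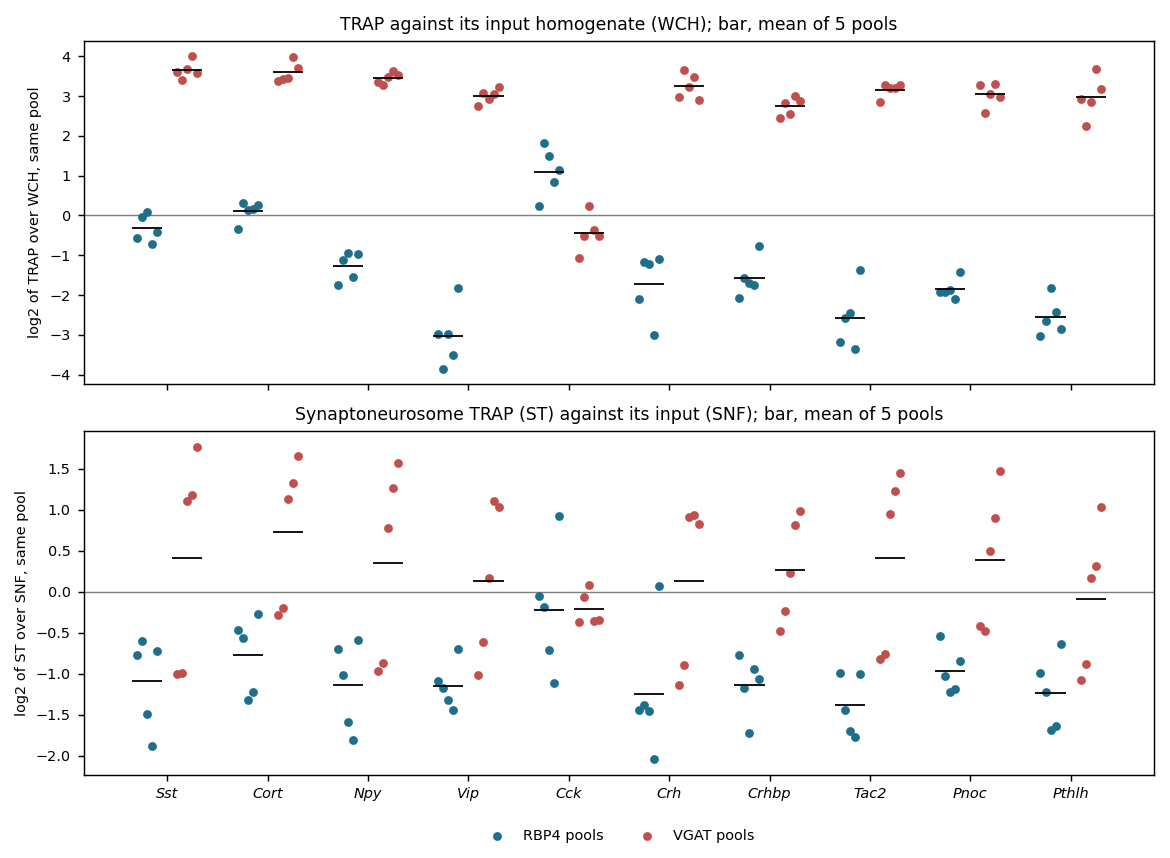
Ratio of each captured fraction to its input on a log2 axis for every pool, TRAP over WCH and ST over SNF, with RBP4 pools in blue and VGAT pools in red. TRAP over WCH is above 0 in all VGAT pools for the 9 genes other than Cck, whereas ST over SNF of these 9 genes is below 0 in VGAT pools 1 and 2 and above 0 in pools 3 to 5. Bars are means of 5 pools.

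The synaptoneurosome fraction was not made with the captured ribosomes, and tests were run there. The paper had defined its local candidates by SNF above WCH as well as ST above SNF, and proposed local translation of Sst and Cort. The SNF tests therefore cannot be taken as independent of earlier results. For Sst and Cort the paper also drew on qPCR that included further biological replicates. It also reported in situ hybridization puncta of both messages in labelled neurites of VGAT neurons. Messages of all 10 genes were more abundant in SNF than in WCH, in both lines. Sst had 545, 829, 477, 595 and 396 cpm in RBP4 SNF against 173, 151, 173, 210 and 196 cpm in RBP4 WCH. In VGAT it had 701, 813, 532, 630 and 613 cpm in SNF against 221, 226, 211, 228 and 221 cpm in WCH. No Sst library of SNF fell within the range of WCH in either line.

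In the quasi-likelihood test of edgeR, adjusted over all genes by Benjamini and Hochberg's method, Sst rose by 1.66 ± 0.27 on the log2 scale (SE, adjusted p = 0.00015) in RBP4 SNF and by 1.57 ± 0.32 (adjusted p = 0.00024) in VGAT SNF. Cort, its relative, rose by 1.12 ± 0.24 (adjusted p = 0.00089) and 1.03 ± 0.29 (adjusted p = 0.0034). Npy rose by 1.29 ± 0.28 (adjusted p = 0.00081) and 1.34 ± 0.31 (adjusted p = 0.00077). The counts behind Cort were low but not sparse, at 49 or more in every RBP4 WCH library and 87 or more in every VGAT SNF library.

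Vip, Tac2 and Crh, which share cells in part, rose too. Vip rose by 0.98 ± 0.26 (adjusted p = 0.0045) in RBP4 and by 1.30 ± 0.28 (adjusted p = 0.00039) in VGAT. Tac2 rose by 1.26 ± 0.29 (adjusted p = 0.0015) and 1.35 ± 0.29 (adjusted p = 0.00041). Crh, which encodes corticotropin-releasing hormone, had 7.62, 3.92, 4.26, 5.50 and 2.16 cpm in RBP4 WCH and 8.15, 11.9, 10.1, 9.09 and 4.00 cpm in RBP4 SNF. These ranges overlap, and its rise of 0.88 ± 0.34 (adjusted p = 0.033) in RBP4 was the smallest of the list. It became 0.65 (adjusted p = 0.105) when no genes were left out of the library sizes, and 0.68, 0.79 and 0.93 without replicates 2, 3 and 4 (adjusted p = 0.17, 0.119 and 0.053). In VGAT, Crh rose by 1.58 ± 0.30 (adjusted p = 9.5e-05), from 2.74 to 4.44 cpm in WCH to 11.1 to 13.7 cpm in SNF.

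Crhbp, whose product sequesters corticotropin-releasing hormone, rose by 0.96 ± 0.23 (adjusted p = 0.002) in RBP4 and 1.06 ± 0.21 (adjusted p = 0.00013) in VGAT. Pnoc rose by 1.45 ± 0.28 (adjusted p = 0.00041) and 1.27 ± 0.26 (adjusted p = 0.00021), and Pthlh by 1.23 ± 0.34 (adjusted p = 0.0047) and 1.35 ± 0.31 (adjusted p = 0.00063). Cck rose by 1.11 ± 0.32 (adjusted p = 0.0064) in RBP4 and by 1.12 ± 0.17 (adjusted p = 6.4e-06) in VGAT, values inside the range of the other members. Its RBP4 groups overlapped, and without RBP4 replicate 2 its value there was 0.84 (adjusted p = 0.054).

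Within pools, SNF was above WCH in 5 of 5 pools for each gene in each line, a count given without the share of all genes. The RBP4 pools were uneven, with pool 2 the highest for all genes on the list. Its ratios ran from 2.79-fold (Vip) to 5.48-fold (Sst), and pool 1 of Crh had the lowest ratio of all, 1.07-fold.

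**Figure D3:**
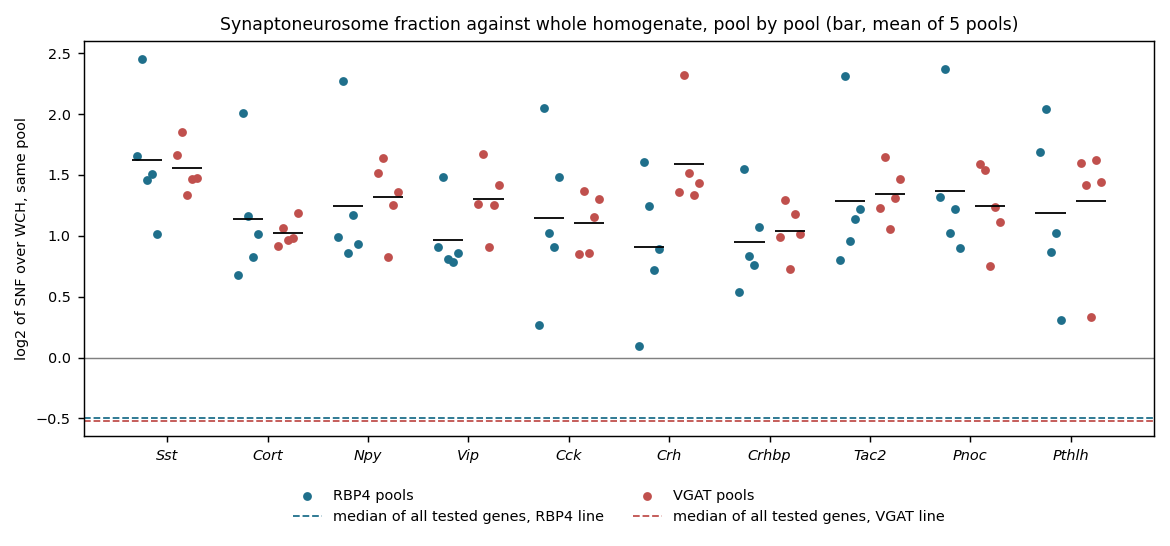
SNF over WCH ratio of each gene in the same pool, on a log2 axis, with RBP4 pools in blue, VGAT pools in red, bars at the mean of 5 pools and dashed lines at the median of all tested genes in each line. Every point is above 0 and above the medians at -0.50 (RBP4) and -0.52 (VGAT), and RBP4 pool 2 is the highest blue point of every gene.

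All 10 members were called higher in SNF in the RBP4 line, where 13.4% of the 17043 genes tested were called higher and the median of all genes was -0.50. In VGAT all 10 were again called higher, against 19.3% of 16990 genes and a median of -0.52. Each member stood above 89.0% or more of all genes, and Sst above 99.4% in RBP4 and 98.3% in VGAT. Among genes whose counted exons were as long as those of the members, 9.84% of 4106 were called higher in RBP4 and 14.1% of 4097 in VGAT.

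The balance of all genes depended on the scaling. Of the genes called, 27.1% were higher in RBP4 SNF, and 51.9% with TMM factors, 62.2% with DESeq2 size factors and 15.9% with no genes left out. The same shares in VGAT were 29.9%, 46.9%, 54.3% and 20.6%. The median of all genes moved to -0.17 with TMM factors in both lines, and to -0.73 in RBP4 and -0.80 in VGAT with no genes left out. Members ranged from 1.27 to 2.03 in RBP4 and 1.38 to 1.93 in VGAT with TMM factors, and from 0.65 to 1.45 and 0.76 to 1.31 with no genes left out, always above those medians.

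Other markers also differed between SNF and WCH. Gad1 and Gad2, which encode the enzymes of GABA synthesis in the same neurons, were lower in SNF, by -1.04 ± 0.35 (adjusted p = 0.018) and -0.98 ± 0.28 (adjusted p = 0.0061) in RBP4 and -1.12 ± 0.27 (adjusted p = 0.00095) and -1.16 ± 0.25 (adjusted p = 0.0004) in VGAT. With TMM factors the RBP4 value of Gad1 was -0.71 (adjusted p = 0.091) and that of Gad2 -0.65 (adjusted p = 0.047), and the VGAT values stayed called, while with DESeq2 size factors neither was called in RBP4. Slc32a1, the vesicular GABA transporter, was higher, by 1.31 ± 0.35 (adjusted p = 0.004) and 1.43 ± 0.19 (adjusted p = 2.1e-06), and was called under each of these scalings. The GABAergic list thus held members that moved in opposite directions, and the neuropeptide genes were on the side of Slc32a1.

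Non-neuronal markers were more abundant in SNF as well. The sum of 6 astrocyte markers was 2682 to 5296 cpm in RBP4 WCH and 8914 to 24780 in RBP4 SNF, and 2200 to 4434 and 8522 to 24490 cpm in VGAT. All 6 were called higher in each line. Of 6 microglial markers, 5 were called higher in RBP4 and 6 in VGAT, with no marker of either list at 0 in any group mean, and of 6 oligodendrocyte markers 4 and 5 were. The highest astrocyte sums were in SNF replicate 3 of both lines, the libraries with the most mitochondrial counts. The part of these shifts in the rise of the peptide genes was not tested, and all 10 calls held in both lines without replicate 3 except that of Crh in RBP4.

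Most genes that process and pack peptides were also called higher in SNF. Of 16 processing genes, 14 were called higher in RBP4 SNF and none lower, and the list median was 1.19. In VGAT 15 were called higher, with a median of 1.47, and 1 lower. Vgf, a granin-like vesicle cargo, rose by 1.76 and 2.30 in RBP4 and VGAT, Cpe, the carboxypeptidase that trims the cut peptides, by 1.56 and 1.84, and Scg3, which helps sort vesicle cargo, by 1.42 and 1.92. Pcsk4, best known from germ cells, was lower in VGAT at -0.83 ± 0.32 (adjusted p = 0.027), a call that was lost with DESeq2, TMM factors, DESeq2 size factors, no filter on low values, or without replicate 2, 3 or 4.

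Receptors for the 10 products were called higher in SNF in 7 of 15 tested in RBP4 and 11 of 16 in VGAT, with none lower. The RBP4 count ran from 2 with no genes left out to 14 with TMM factors, and was 3 without replicate 1, 2 or 4. Other neuropeptide precursors were called higher in 7 of 18 in RBP4 and 13 of 19 in VGAT, with none lower, and DESeq2 called 11 in RBP4. Penk, the enkephalin precursor, rose by 1.20 and 1.29, and Pdyn, the dynorphin precursor, by 1.23 and 1.38. These list counts in SNF were added after the members' values had been seen.

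Without capture, the lines did not differ detectably in the 10 genes. In WCH the VGAT minus RBP4 difference ran from -0.32 ± 0.33 on the log2 scale for Tac2 to 0.47 ± 0.31 for Pthlh (SE), and every member had an adjusted p = 1 by edgeR's quasi-likelihood test. No member was called, with none at an unadjusted p under 0.05 by edgeR or by DESeq2, where 0.0118% of 16898 genes were called and 426 passed unadjusted. Sst was the only member whose WCH groups did not overlap, a separation given without the share of all genes. Its VGAT values, 211 to 228 cpm, all lay above its RBP4 values, 151 to 210 cpm, at a difference of 0.29 ± 0.33. The fit behind this SE also held the TRAP and ST libraries, so the SE carries their spread as well.

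In SNF the difference ran from -0.24 ± 0.30 for Tac2 to 0.58 ± 0.30 for Pthlh, whose unadjusted p was 0.065 and whose adjusted p = 0.999. No member was called by either tool, against 0.0178% of genes called and 778 that passed unadjusted. The SNF minus WCH difference was also compared between the lines. It was 0.69 ± 0.45 larger in VGAT for Crh and between -0.18 and 0.32 for the other 9 genes, with no member called, none of 16898 genes called (0%) by edgeR or DESeq2, and 81 that passed unadjusted by edgeR and 79 by DESeq2. These SEs leave room for line differences of the size seen for Pthlh, and a p that misses the threshold does not show that the lines are alike.

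The tagged synaptic fraction was the least even of the 4. In VGAT ST, Sst had 349, 409, 1143, 1429 and 2094 cpm in replicates 1 to 5, and Npy 410, 510, 913, 1711 and 2248. In RBP4 ST, Sst had 320, 546, 169, 161 and 239 cpm and Npy 344, 463, 132, 172 and 326. VGAT ST replicates 1 and 2 held the lowest VGAT values of both genes. They lay within the range of the RBP4 libraries, except that Npy in replicate 2 was above it.

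Vip, with 83.8, 122, 168, 393 and 352 cpm in VGAT ST and 45.3 to 80.8 in RBP4 ST, showed the same spread without overlap. Crh had 5.21, 7.37, 21.5, 21.1 and 20.3 cpm in VGAT ST and 2.21 to 4.56 in RBP4 ST. The members with the fewest counts followed, with Pthlh at 4.43 to 15.5 cpm in VGAT ST and 1.03 to 3.29 in RBP4 ST. Cck again did not, at 390 to 616 cpm in VGAT ST and 272 to 698 in RBP4 ST.

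The fitted ratio of VGAT to RBP4 ST was 2.94-fold for Pnoc to 4.26-fold for Crh over the 9 genes other than Cck, and 1.55 to 2.09 on the log2 scale, with Cck at -0.01. In TRAP the same 9 genes stood at 13.4-fold to 61.1-fold. The ST libraries of the lines did not overlap for 7 of 10 members, all but Sst, Npy and Cck, and for 1.22% of all genes. With TMM factors or DESeq2 size factors the count was 3, and the share of all genes under these scalings is not given. The count was 9 without RBP4 replicate 2, where 2.14% of all genes did not overlap. Leaving out VGAT ST replicates 1 and 2, an alternative chosen after the data had been seen, gave 9 of 10, beside 3.33% of all genes, and log2 differences of 1.87 to 2.57, with Crh at 5.93-fold. Without RBP4 ST replicate 4 the 9 genes had 1.52 to 1.96.

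Several ST libraries stood apart in other genes. The sum of 5 endothelial markers was 217 and 96.2 cpm in VGAT ST replicates 1 and 2, against 13.1 to 30.2 in the other VGAT ST libraries, and 271 cpm in RBP4 ST replicate 2, the RBP4 library with the most Sst and Npy. RBP4 ST replicate 4 had 49.9 cpm of Slc32a1, where the remaining 4 RBP4 ST libraries had 10.9 to 19.7 cpm. Summed oligodendrocyte markers were 31800 to 54690 cpm in ST, above every SNF library (12190 to 18770), WCH library and TRAP library. The part of these in the peptide values was not tested. Between the lines in ST, edgeR called 0 of 3 GABAergic markers (0.58 to 0.90 on the log2 scale) and 0 of 4 glutamatergic markers (-0.56 to -0.19). Of 6 striatal markers, 2 were called higher in VGAT ST. Summed GABAergic markers were 460 ± 177 cpm in VGAT ST and 450 ± 153 cpm in VGAT SNF (SD, n = 5). How far ST peptide values reflect the targeted cells was not tested.

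Set against the synaptoneurosomes it was captured from, VGAT ST split by pool. For 9 genes, ST was below SNF in pools 1 and 2 and above it in pools 3, 4 and 5, and the groups overlapped for all 10 members. Sst was at 0.498-fold and 0.503-fold its SNF level in pools 1 and 2 and at 2.15-fold, 2.27-fold and 3.41-fold in pools 3, 4 and 5. Without VGAT ST replicates 1 and 2 there were 4 members whose ST libraries all lay above SNF, beside 11.1% of all genes without these libraries and 8.99% with them. Cck was above SNF in 1 of 5 pools.

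In RBP4, ST was below SNF in 5 of 5 pools for 8 genes and in 4 of 5 for Cck and Crh, with Sst at 0.271-fold to 0.658-fold. VGAT ST was below VGAT TRAP in 5 of 5 pools for the 9 genes, without overlap, as for 26.9% of all genes, by fitted ratios of 2.23-fold (Tac2) to 3.17-fold (Cort). Cck was 2.51-fold higher in VGAT ST than in VGAT TRAP, in 5 of 5 pools. RBP4 ST was above RBP4 TRAP in 5 of 5 pools for Npy, Vip, Crh, Crhbp, Tac2, Pnoc and Pthlh, in 4 for Sst, in 3 for Cort and in 2 for Cck. Counts of pools in ST comparisons are given for the members only, with no share of all genes beside them.

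Across the 40 libraries, the 9 genes other than Cck varied together. Pearson's r of log2(cpm + 1) was 0.80 to 0.98 over their 36 pairs, with a median of 0.94, and Cck had r between -0.27 and -0.12 with the 9. The libraries share lines, fractions and pools, so these values describe the design as much as the genes. Among 14007 other genes, the pattern most like that of Vip, Crhbp, Tac2, Pnoc and Pthlh was that of Nxph1, which encodes the secreted neurexin ligand neurexophilin 1 (r = 0.960 to 0.975), with 284 cpm in VGAT TRAP and 14.2 cpm in RBP4 TRAP.

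The nearest genes to Sst were Rbp4 (r = 0.927) and Cox6a2 (r = 0.924), a subunit of cytochrome c oxidase, and the same genes were nearest to Cort in the other order (0.954 and 0.957). Rbp4, the retinol-binding protein gene whose regulatory sequence drives Cre in the other line, had 116 cpm in VGAT TRAP, 14.5 in VGAT WCH, 21.4 in RBP4 TRAP and 12.8 in RBP4 WCH. Mxra7 was nearest to Crh (0.947). Tac2 had Htr3a, the ionotropic serotonin receptor of many Vip cells, in the next place (0.962). Cck was most like Aqp11 (0.884) and Olfm1 (0.881), which had 701 cpm in VGAT TRAP and 1434 in RBP4 TRAP.

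Receptors for these peptides were called in both directions. Of 16 receptor genes tested in TRAP, 7 were called higher in RBP4, where 12.9% of all genes were, and 3 in VGAT, where 15.1% were, with a list median of -0.37 beside 0.01 over all genes. Cckbr, the main cholecystokinin receptor of the brain, stood at 79.8 ± 13.0 cpm in RBP4 TRAP against 26.5 ± 8.52 in the VGAT capture (SD, n = 5), a difference of -1.59 ± 0.25 on the log2 scale (adjusted p = 1.2e-05, edgeR). Sstr2, a somatostatin receptor, had 72.1 ± 22.2 and 20.6 ± 4.05 cpm (-1.81 ± 0.32, adjusted p = 4.3e-05). All RBP4 libraries of both genes were above all VGAT libraries.

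Crhr1, through which corticotropin-releasing hormone mainly acts in cortex, was at 14.9 ± 2.23 cpm in RBP4 TRAP and 4.99 ± 1.23 in VGAT TRAP (adjusted p = 4.3e-05), Sstr3 at 9.49 ± 0.199 and 3.11 ± 1.80 (adjusted p = 0.00028) and Vipr1 at 7.37 ± 1.46 and 2.60 ± 1.13 (adjusted p = 0.00035). Npy1r and Oprl1, the nociceptin receptor, were the other 2 called higher in RBP4. Crhr2 was called higher in VGAT at a low level, 1.64 ± 0.452 against 0.594 ± 0.270 cpm (adjusted p = 0.0018), as were Vipr2 and Cckar. Cckar passed the filter on low values only through VGAT TRAP, the group where it is high, so its call could not have gone the other way, and 2 receptors were called higher in VGAT without it. In ST none of the 16 receptors was called by edgeR or DESeq2, at an unadjusted p under 0.05 for 0 by edgeR and 1 by DESeq2, where 0.266% of genes were called higher in VGAT and 0.0592% in RBP4, and the list median was -0.07.

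Of 16 processing genes, 7 were called higher in RBP4 TRAP and 2 in VGAT TRAP, at a median of -0.40. Convertases had the smallest p, with Pcsk5 at 37.3 ± 3.54 cpm in RBP4 and 8.41 ± 2.04 in VGAT (-2.15 ± 0.27, adjusted p = 2.8e-07) and Pcsk2, the main neuronal convertase with Pcsk1, at 411 ± 56.8 and 185 ± 31.8 cpm (-1.15 ± 0.21, adjusted p = 7.5e-05). Pcsk1, Pcsk4, Cpd, Cpe and Scg3 were the others. Scg2, a granin that is itself cut into peptides, was higher in VGAT, at 625 ± 101 against 306 ± 26.5 cpm (1.03 ± 0.22, adjusted p = 0.00045), as was Pcsk1n. In ST edgeR called 0 of the 16 and DESeq2 1, with 3 and 4 at an unadjusted p under 0.05.

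Other peptide precursors showed what the lines hold besides the 10 genes. In TRAP, 11 of 18 were called higher in VGAT and 3 in RBP4, with a list median of 2.26. Prok2, 1 of the 11, passed the filter only through VGAT TRAP. Penk had 2164 ± 486 cpm in VGAT TRAP and 70.0 ± 29.1 in RBP4 TRAP (4.95 ± 0.39, adjusted p = 2.8e-11), and Tac1, the substance P precursor, 523 ± 70.6 and 25.1 ± 11.2 cpm (4.38 ± 0.38, adjusted p = 2e-10). Both are abundant in striatal projection neurons as well as in some interneurons, and Pdyn, at 130 ± 9.51 against 20.2 ± 7.37 cpm (2.69 ± 0.27, adjusted p = 3.4e-09), is as well.

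Igf1 and Adm were also higher in VGAT, by 3.45 ± 0.33 (adjusted p = 1.2e-09) and 4.44 ± 0.43 (adjusted p = 1.9e-09), the latter at 5.70 cpm. Adcyap1, the PACAP precursor, was the mirror image with 61.7 ± 17.8 cpm in RBP4 and 3.35 ± 2.12 in VGAT (-4.20 ± 0.39, adjusted p = 8.5e-10), and Grp and Nmb went with it. In ST Penk was the only precursor called, at 1.85 ± 0.34 (adjusted p = 0.0072), with 5 of 18 at an unadjusted p under 0.05 and 2 called by DESeq2, and its call was lost without VGAT replicate 5.

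**Figure D4:**
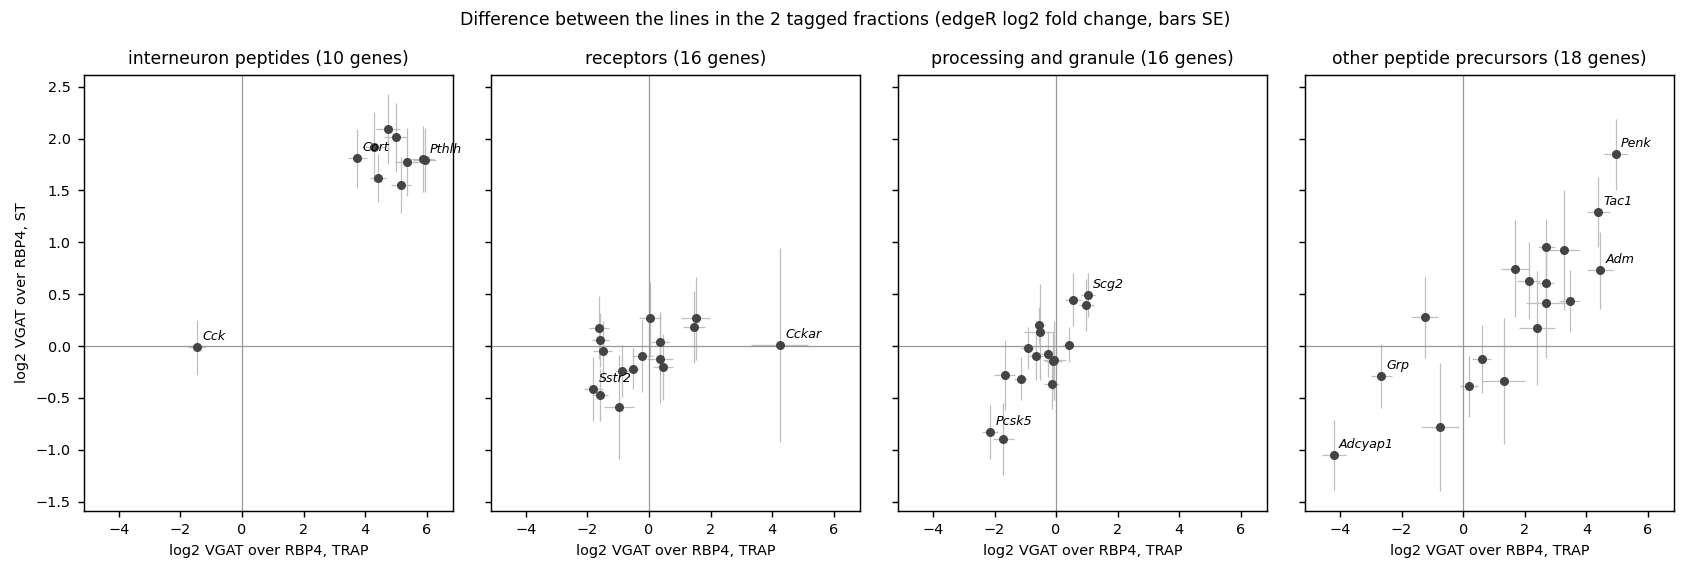
VGAT minus RBP4 difference on the log2 scale in TRAP (horizontal axis) against that in ST (vertical axis), 1 point per gene with SE bars, in panels for the 10 interneuron peptides, 16 receptors, 16 processing genes and 18 other precursors. All 10 peptides but Cck sit between 3.75 and 5.93 in TRAP and between 1.55 and 2.09 in ST, receptors and processing genes lie on both sides of 0, and Penk and Adcyap1 are at the ends of the last panel.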

How the data were processed

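The authors aligned 50-base single reads of SMARTer libraries, a kit that does not mark strand, with STAR 2.0.4b to an Ensembl assembly whose build is not given in the sources used here, and counted genes with featureCounts 1.4.5. The deposited unit is raw counts per gene. The deposited files also hold CPM and RPKM made by the authors, which were recomputed from the counts to within 4.07e-10 and 2.76e-10 and not used further. File coordinates equalled those of GENCODE M21 (GRCm38) for 76.1% of 40340 shared genes and 4 of the 10 members.

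The 10 genes and the receptor, processing and precursor lists were chosen with earlier results of these data known. Counts were scaled to library sizes without 390 mitochondrial, ribosomal and transfer RNA genes. Genes with 0.5 cpm in 3 or more libraries were tested by edgeR's quasi-likelihood test (edgeR 4.0.16, R 4.3.3) with Benjamini-Hochberg adjustment at 0.05, in 1 fit over the 20 libraries of a line for SNF against WCH, in 1 over the 30 WCH, TRAP and ST libraries for the lines in those fractions, and in 1 over all 40 libraries for SNF and the SNF minus WCH difference between lines. Between lines the filter was applied to the TRAP and ST libraries. The SE is the absolute log2 change over the square root of F. Correlations used log2(cpm + 1). Named list genes were those called between lines in TRAP or ST, without overlap and with a mean of at least 1 cpm, up to 6 per list by smallest p. Likeness took the 2 genes with the highest Pearson correlation per member, of which not all are reported here. Other examples were chosen after their values were seen. Alternatives were DESeq2 1.42.0, a likelihood ratio test, TMM and DESeq2 size factors, other filters, no genes left out, a replicate block and leaving out replicates. Intervals of counting error were not computed. The p-values measure the spread between pools within groups, taken per gene over all libraries of a fit, TRAP and ST included.

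The 4 libraries of a pool were prepared in parallel, so replicate numbers pair samples within a line. Same-numbered SNF and WCH libraries had correlated deviations (mean r = 0.221 in RBP4 and 0.33 in VGAT, against -0.055 and -0.082 for other numbers). The tests were checked on simulated counts, where most 2-fold changes between the lines in WCH and in SNF were missed. Most such changes between SNF and WCH were missed in RBP4 as well, while most were recovered in VGAT.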

Additional observations from a re-analysis of the deposited data

Results flagged for a closer look

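In 6 of 80 groups of 5 libraries 1 member value lay far from the others, where chance gives about 1 in 20 groups. Sst was high in VGAT TRAP replicate 4 at 3648 cpm, and so was Tac2 at 123.7 cpm. Tac2 was high in RBP4 TRAP replicate 5 at 5.27 cpm, the library with the most Gad1 and oligodendrocyte markers of its group. Npy was low in VGAT WCH replicate 1 at 280.3 cpm. Crh was low in VGAT WCH replicate 2 at 2.74 cpm and high in VGAT SNF replicate 2 at 13.7 cpm.

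For 7 genes the TRAP over WCH ratio was above 1 in every VGAT pool and below 1 in every RBP4 pool. The VGAT minus RBP4 difference of the mean log2 ratio was 4.71 for Npy, 6.04 for Vip, 4.97 for Crh, 4.32 for Crhbp, 5.75 for Tac2, 4.89 for Pnoc and 5.53 for Pthlh. The ST over TRAP ratio of the same 7 genes was below 1 in every VGAT pool and above 1 in every RBP4 pool, at -3.14 for Npy, -4.42 for Vip, -2.91 for Crh, -2.83 for Crhbp, -3.90 for Tac2, -3.66 for Pnoc and -4.29 for Pthlh. These differences were not tested, and no share of all genes with the same pool pattern is given beside them.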

How the results depend on the processing

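Of 466 counts set out for the lists and groups under the alternatives, 457 stayed within 1.5 times the reported count. The exceptions follow, and their cause was not tested. Members whose ST libraries did not overlap between lines numbered 3 with TMM factors and 3 with DESeq2 size factors (7 as reported, 7 to 9 on leaving out replicates). No share of all genes is given for the counts with TMM or DESeq2 size factors. Members whose VGAT ST libraries were all above SNF numbered 4 without VGAT ST replicates 1 and 2 (0 as reported). Receptors called higher in VGAT TRAP numbered 1 to 3 on leaving out replicates, with 1 without VGAT replicate 4 (3 as reported). Processing genes called higher in RBP4 ST numbered 1 by DESeq2 (0 as reported). Other precursors called higher in VGAT ST (1 as reported) numbered 2 by the likelihood ratio test, DESeq2 and the replicate block, and 0 to 1 on leaving out replicates. Of 2550 values of single genes, 55 had another sign than the reported value. Of these, 37 were line differences in WCH or SNF or in SNF minus WCH, none of them called, and 18 were values of Cck or Pthlh that involve ST, given without a test. The turn was larger than the spread between pools for 1 of them, Cck in VGAT ST over SNF, at 0.012 on the log2 scale with no genes left out and -0.21 as reported. No value of SNF against WCH within a line changed sign. The replicate block changed no call on a member. Between lines the numbers mark no shared animals. Same-numbered libraries correlated at a mean r of 0.191 in WCH (range -0.224 to 0.595) and 0.219 in SNF (-0.232 to 0.755). The mean was 0.145 in TRAP (-0.026 to 0.395) and 0.045 in ST (-0.479 to 0.539).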
